A study of Mus musculus with 4 samples.

Results

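The 10 genes described here encode the enzymes that build purine nucleotides: Ppat, Gart, Pfas, Paics, Adsl and Atic, which make inosine monophosphate (IMP), Adss, which with Adsl turns IMP into AMP, and Impdh1, Impdh2 and Gmps, which turn it into GMP. They were chosen by symbol from the 32285 genes of each count matrix, and all 10 were found once. Mouse islets were studied by single-cell RNA sequencing (10x Genomics 3′ chemistry, in which each captured transcript is counted once by a unique molecular identifier, UMI). All islets came from wild-type C57BL6J male mice aged 8 weeks and were cultured for 24 h at 3.9 or 11.1 mM glucose with 1 mM imeglimin, an oral glucose-lowering drug, or with DMSO vehicle, then dispersed with Accutase. How many mice gave the islets of each library is not given in the sources used here. There were 4 libraries, 1 for each combination, so no difference between conditions has a replicate check and no test was made.

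Purine synthesis starts when PPAT commits phosphoribosyl pyrophosphate (PRPP) to the pathway. The enzymes that follow build the ring with carbon from one-carbon metabolism and nitrogen from glutamine, glycine and aspartate. IMP is the branch point: adenylosuccinate synthase and ADSL lead to AMP, and IMP dehydrogenase, the rate-limiting enzyme of the guanine branch, leads with GMPS to GMP. In beta cells purine nucleotides link glucose metabolism to insulin release through ATP and GTP, and adenylosuccinate, the substrate of ADSL, has been studied as a signal in insulin secretion.

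After filtering, 7166 cells were kept with vehicle and 8755 with imeglimin at 3.9 mM, and 7444 and 8427 at 11.1 mM. The matrices held 91245564 to 106092232 UMIs each, and pairs of libraries shared 19 to 34 cell barcodes. Clusters were named from marker genes. Insulin-producing beta-like cells numbered 4614, 4454, 4944 and 5463 in the libraries for vehicle at 3.9 mM, imeglimin at 3.9 mM, vehicle at 11.1 mM and imeglimin at 11.1 mM, and all 8 beta markers were detected in each. Alpha-, delta-, pp-, endothelial-, macrophage- and stromal-like cells also reached 50 cells in every library. Different clusters held most beta-like cells in each condition: cluster 0 with vehicle at 3.9 mM, clusters 2 and 9 with imeglimin at 3.9 mM, clusters 3 and 5 with vehicle at 11.1 mM, and clusters 1 and 7 with imeglimin at 11.1 mM. Likewise cluster 10 held most alpha-like cells of the vehicle libraries and cluster 4 those of the imeglimin libraries. None of the 10 genes was among the 2000 genes used for clustering. Hormone and mitochondrial transcripts took 19.8%, 27.9%, 46.3% and 40.7% of beta-like UMIs in the same order of libraries, a share that moves the total to which all other genes are scaled. In beta-like cells the summed level of the 7 alpha markers lay between 821 and 1553 CPM before TMM scaling and was highest with imeglimin at 3.9 mM, with none of the markers at 0, and its part in the results below was not tested. The 6 delta markers summed to 81.9 to 261 CPM, highest in the same library, with at most 1 at 0. In each library, 593 to 1276 cells in clusters that no marker list named were left out of the class sums.

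Promoter sequences came from RefSeq (build GRCm38.p6). Those of 9 of the 10 genes were in the table used, in windows of 250 bases before to 50 after the start. The E-box letters CACGTG, read on either strand, were found in Atic, Impdh2 and Paics, and in 7.15% of all 32851 promoters of that length. The NRF1 core GCGCATGC was found in Ppat, and in 2.71% of all promoters. CCAAT was found in Atic, Gart, Impdh2 and Paics, against 37.4% of all promoters. TGACGTCA, the cAMP response element, and TGATGNAA, an ATF4 element, were in none of these windows, against 1.79% and 3.97% of all promoters. The carbohydrate response element, whose matches can overlap an E-box, was also in none, against 0.365%. The Impdh2 E-box lies 110 bases before the RefSeq start but within the gene as annotated by GENCODE, which starts at 108560286. The Paics E-box lies within the Ppat gene, and the NRF1 core is at transcribed base 24 of Ppat. A match is a description of letters, not of binding. Adsl and Atic are shown as the namesake of the set and as the gene whose E-box lies nearest its start, 7 bases before it, and the others as 30 bases around their match, each 5′ to 3′ on the gene's strand with E-box or NRF1 letters in capitals.
Adsl (chr15:80948240-80948489, plus strand): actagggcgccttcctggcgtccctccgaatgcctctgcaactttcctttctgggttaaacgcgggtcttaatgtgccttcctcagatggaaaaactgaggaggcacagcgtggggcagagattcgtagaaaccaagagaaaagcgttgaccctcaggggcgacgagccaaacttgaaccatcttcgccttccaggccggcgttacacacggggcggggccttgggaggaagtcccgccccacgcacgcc
Atic (chr1:71556906-71557155, plus strand): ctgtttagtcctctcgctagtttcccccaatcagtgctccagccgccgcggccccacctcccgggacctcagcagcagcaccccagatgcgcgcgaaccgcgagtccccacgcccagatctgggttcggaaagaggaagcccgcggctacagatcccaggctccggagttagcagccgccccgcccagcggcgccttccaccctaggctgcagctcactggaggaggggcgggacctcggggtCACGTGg
Impdh2 E-box (chr9:108560314-108560343, plus strand): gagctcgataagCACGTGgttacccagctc
Paics E-box (chr5:76951087-76951116, plus strand): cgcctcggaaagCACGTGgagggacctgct
Ppat NRF1 core (chr5:76951537-76951566, minus strand): caaaaagtggcGCGCATGCtgcaaggcccc

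Ppat and Paics lie head to head on chromosome 5, Ppat on the minus strand at 76913249 to 76951578 and Paics on the plus strand at 76951307 to 76967509 (GENCODE M21, GRCm38), so their 5′ ends overlap. Within its last 500 bases, an annotated transcript of Paics matched Ppat, and one of Gart matched the antisense gene Gm15964, at 95% identity or more, so the counts of these genes are uncertain to that extent. Adsl (chromosome 15, 80948490 to 80970946) overlaps Gm6612, and Gart lies on chromosome 16, 91621186 to 91646952. How reads in such overlaps were counted is not given in the sources used here. The 3′ end of Impdh2 is nearly identical to the pseudogene Impdh2-ps, which is not among the genes of the count matrices. It thus has no count of its own, and reads of the 2 could be confused.

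Ppat encodes the enzyme of the first committed step, and over all beta-like cells it was higher at 11.1 than at 3.9 mM glucose under both treatments. Levels are given in CPM, the gene's UMIs per 1000000 summed UMIs of a class after scaling by the trimmed mean of M-values (TMM), with a 95% exact Poisson interval, which covers counting error only. With vehicle, Ppat stood at 25.0 CPM (23.9 to 26.1, 1913 UMIs) at 3.9 mM and at 78.6 CPM (76.5 to 80.8, 5362 UMIs) at 11.1 mM. With imeglimin it stood at 41.7 CPM (40.0 to 43.5) at 3.9 mM and at 78.0 CPM (76.0 to 80.1) at 11.1 mM. The vehicle library at 3.9 mM was the lowest, the imeglimin library at the same glucose stood between, and the intervals of both libraries at 11.1 mM overlapped. Ppat was thus 3.15-fold higher at 11.1 mM under vehicle (log2 ratio 1.66, 95% conditional counting interval 1.58 to 1.73) and 1.87-fold higher under imeglimin (0.90, 0.83 to 0.97). At 3.9 mM it was higher with imeglimin than with vehicle by 0.74 (0.65 to 0.83), which was 0.44 with plain CPM, that is without TMM scaling. At 11.1 mM the treatments differed by -0.01 over all beta-like cells, though not within each cluster.

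**Figure D1:**
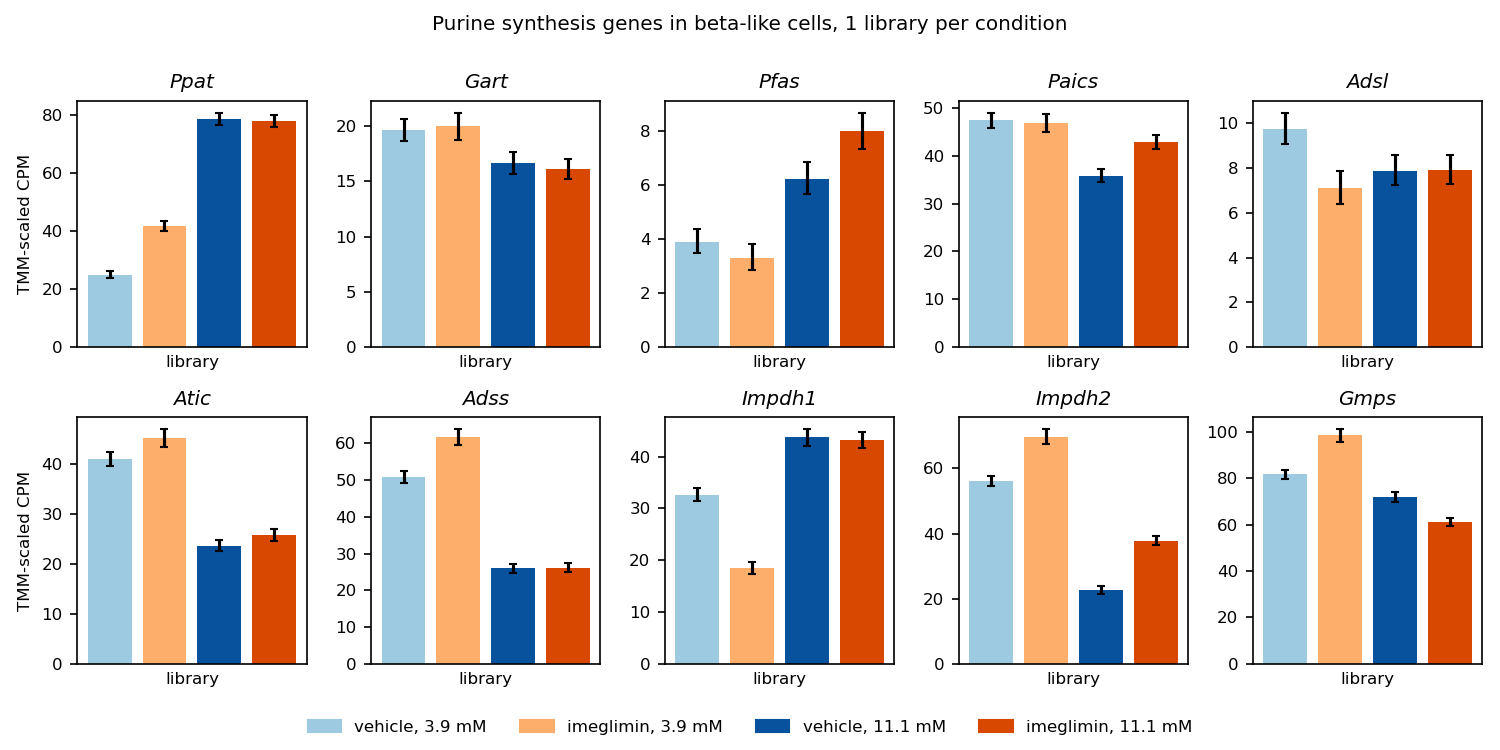
Level of each gene in beta-like cells (vertical axes, TMM-scaled CPM, a separate scale for each gene) in the 4 libraries, coloured by treatment and glucose. Bars are single libraries and error bars 95% exact Poisson intervals. Ppat is high in both libraries at 11.1 mM, at 78.6 and 78.0 CPM, whereas Adss, Atic and Impdh2 are highest in the libraries at 3.9 mM.

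Outside beta-like cells the glucose ratio of Ppat varied by class. In delta-like cells, which make somatostatin, it stood at 23.8, 33.9, 55.9 and 57.3 CPM in the order vehicle and imeglimin at 3.9 mM, then vehicle and imeglimin at 11.1 mM, a log2 ratio between glucose levels of 1.23 (0.97 to 1.51) under vehicle and 0.76 (0.51 to 1.00) under imeglimin. In glucagon-producing alpha-like cells the 4 levels were 28.1, 33.3, 29.2 and 32.3 CPM, with a log2 ratio of 0.06 (-0.27 to 0.38) under vehicle and -0.05 (-0.29 to 0.20) under imeglimin. The alpha interval lay wholly below those of beta- and delta-like cells under vehicle, and the difference between classes has no replicate check. Endothelial-like cells gave 0.57 (0.01 to 1.14) under vehicle and 1.05 (0.59 to 1.51) under imeglimin. The ratios were 0.46 and 0.06 in pp-like, 0.10 and 0.07 in macrophage-like and -0.17 and 0.60 in stromal-like cells, all with intervals that included 0.
The class values in beta-like cells did not hold in every cluster. Cluster 7, led by genes such as Ero1l, Bnip3 and Slc2a1, was 1 of 2 beta-like clusters with at least 50 cells in both vehicle libraries, and there Ppat had a plain CPM of 22.4 (15.6 to 31.1, 110 cells) at 3.9 mM and of 26.6 (23.1 to 30.5, 581 cells) at 11.1 mM. In cluster 9, led by Derl3, Depp1 and Nfkbia, it had 14.8 and 17.5 under vehicle. Under imeglimin it was lower there at 11.1 mM, at 17.6 (10.6 to 27.4, 139 cells) against 46.2 (42.2 to 50.4, 1043 cells) at 3.9 mM. In cluster 17, led by Rsad2 and Ifit3, Ppat under imeglimin was higher at 11.1 mM, with overlapping intervals. It had 58.8 (47.0 to 72.6, 113 cells) against 41.2 (33.8 to 49.8, 202 cells) at 3.9 mM. Clusters 3 and 5, which hold most vehicle beta-like cells at 11.1 mM, had 81.0 and 83.6 plain CPM. With imeglimin and vehicle at 3.9 mM, Ppat had 34.1 and 30.8 plain CPM in cluster 0, 39.9 and 27.7 in cluster 2 and 46.2 and 14.8 in cluster 9. At 11.1 mM it was higher with imeglimin in cluster 7, at 56.1 (52.3 to 60.1) against 26.6, and in cluster 5, at 105.1 (99.4 to 111) against 83.6 (79.7 to 87.6). In cluster 1 it had 67.0 and 53.4, in cluster 3 72.7 and 81.0 and in cluster 9 17.6 and 17.5, and in these 3 clusters the intervals overlapped.

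Gart, Pfas and Paics catalyse the steps between PPAT and ADSL. Gart, a trifunctional enzyme, stood at 19.6, 19.98, 16.6 and 16.1 CPM in beta-like cells in the same order of libraries. It differed between glucose levels by a log2 ratio of -0.24 under vehicle and -0.31 under imeglimin, and between treatments by 0.03 at 3.9 mM, which was -0.28 with plain CPM, and by -0.05 at 11.1 mM. Pfas was the lowest of the set in UMIs, at 3.90 (299 UMIs), 3.31 (176), 6.25 (426) and 8.00 CPM (561). Both libraries at 11.1 mM were above both at 3.9 mM, with log2 ratios of 0.68 (0.46 to 0.90, or 0.29 with plain CPM) under vehicle and 1.27 (1.02 to 1.52) under imeglimin. Paics, a bifunctional enzyme just before ADSL, stood at 47.4, 46.9, 35.8 and 42.8 CPM. The vehicle library at 11.1 mM was its lowest, and imeglimin was higher there by a log2 ratio of 0.26 (0.18 to 0.33). Its glucose ratio under imeglimin, -0.13, turned to 0.02 when hormone and mitochondrial genes were left out of the total.

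Adsl encodes adenylosuccinate lyase, which acts both on the way to IMP and on the way from IMP to AMP. It was a low-level transcript in every class. Beta-like cells held 747, 377, 538 and 555 Adsl UMIs in the 4 libraries, between 0.0846 and 0.162 per cell, which is 9.75 (9.06 to 10.5), 7.10 (6.40 to 7.85), 7.89 (7.24 to 8.59) and 7.91 CPM (7.27 to 8.60). The vehicle library at 3.9 mM was the highest, and the other 3 had overlapping intervals. At 11.1 mM the level with imeglimin differed from vehicle by a log2 ratio of 0.00 (-0.17 to 0.18), and of -0.18 when hormone and mitochondrial genes were left out of the total. At 3.9 mM it was lower with imeglimin by -0.46 (-0.64 to -0.28), or 1.37-fold. Both other scalings put this ratio past 1.5-fold, at -0.76 with plain CPM and -0.61 without hormone and mitochondrial genes. Glucose made a difference of -0.31 (-0.47 to -0.14) under vehicle, which was -0.70 with plain CPM, and 0.16 (-0.03 to 0.35) under imeglimin.
Within the 3 beta-like clusters with at least 50 cells of both libraries at 3.9 mM, the Adsl intervals of the treatments overlapped, and in each cluster the smaller group had few UMIs. In cluster 0, led by genes such as Rnase4 and Nupr1, Adsl had 12.3 plain CPM (11.4 to 13.3, 4175 cells) with vehicle and 12.2 (6.8 to 20.06, 137 cells) with imeglimin. In cluster 2, led by Snhg1 and Ddit3, it had 7.7 (4.6 to 12.1, 171 cells) and 7.5 (6.6 to 8.4, 3002 cells). In cluster 9 it had 4.9 (1.0 to 14.4, 53 cells) and 4.3 (3.2 to 5.7, 1043 cells).

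Across classes, Adsl ranged from 3.18 CPM (3 UMIs) in macrophage-like cells with imeglimin at 11.1 mM to 26.2 CPM (25 UMIs) in stromal-like cells with vehicle at 11.1 mM. In each of the 4 libraries every class overlapped its neighbours in the order of Adsl levels, though classes further apart in the order did not all overlap. With vehicle at 11.1 mM, stromal-like cells at 26.2 CPM (17.0 to 38.7) stood above beta-like cells at 7.89 CPM. With imeglimin at 11.1 mM they stood above them at 19.98 CPM (10.9 to 33.5, 14 UMIs). Without hormone and mitochondrial genes in the total they lay closer, at 30.5 and 13.6 CPM with vehicle and 23.0 and 12.0 with imeglimin. TMM factors were set within each class, and no intervals were computed for these last levels. After TMM scaling, Adsl ratios of at least 1.5-fold with a counting interval that left out 0 were found only for alpha-like cells with imeglimin at 11.1 mM, at 6.59 CPM (41 UMIs). There it was below vehicle by a log2 ratio of -0.91 (-1.52 to -0.31) and below imeglimin at 3.9 mM by -0.78 (-1.31 to -0.27). Over the 28 sums of 7 classes and 4 libraries, the genes whose log2(CPM + 10) followed Adsl most closely among 6239 genes were Banf1 (Pearson r 0.82), Prpsap1 (0.80), Pkig (0.78), Hnrnpa3 (0.77) and Gnl2 (0.77). These points share libraries and depths, so the values are a description. Among pairs of the 10 genes the highest r was that of Paics and Impdh2, at 0.79, and Adsl came closest to Adss, at 0.54.

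Atic, the bifunctional enzyme that completes IMP, and Adss, which commits IMP to AMP, were both lower at 11.1 mM in beta-like cells. Atic stood at 41.1 and 45.2 CPM with vehicle and imeglimin at 3.9 mM and at 23.7 and 25.8 CPM at 11.1 mM, 1.73- and 1.75-fold lower under vehicle and imeglimin. Adss stood at 50.9 and 61.7 CPM at 3.9 mM and at 26.0 and 26.2 CPM at 11.1 mM, with log2 ratios of -0.97 (-1.05 to -0.89) and -1.24 (-1.32 to -1.15). For both genes the libraries at 11.1 mM lay below those at 3.9 mM with no overlap of intervals. In cluster 7 under vehicle both were also lower, Atic at 26.2 against 47.3 plain CPM and Adss at 34.7 against 49.8. In cluster 9 under vehicle the intervals overlapped, with Atic at 10.5 against 14.8 and Adss at 17.5 against 16.4. Under imeglimin both were lower at 11.1 mM in clusters 9 and 17, with overlapping intervals for Atic in cluster 17. In alpha-like cells Adss had 45.3, 53.2, 47.3 and 38.9 CPM, and its glucose ratio under vehicle was 0.06 (-0.19 to 0.32). In delta-like cells it had 53.4, 50.4, 40.2 and 28.1 CPM.
Adssl1, which encodes the other adenylosuccinate synthase isozyme, held 54.5% (44.2 to 64.6), 43.6% (30.3 to 57.7), 76.6% (68.8 to 83.2) and 78.4% (70.4 to 85) of the UMIs of both isozymes in macrophage-like cells. Intervals on shares are exact Clopper-Pearson intervals. In the other 6 classes its share was at most 17.0%. UMIs of this assay count 3′ ends, so such shares carry no correction for transcript length.

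Summed over all beta-like cells, Impdh1 and Impdh2, the 2 IMP dehydrogenases, differed in opposite directions between glucose levels. Impdh1 stood at 32.6 CPM with vehicle and 18.4 with imeglimin at 3.9 mM, and at 43.7 and 43.1 CPM at 11.1 mM. Impdh2 stood at 56.1 and 69.8 CPM at 3.9 mM and at 22.6 and 37.8 CPM at 11.1 mM. Both Impdh1 values at 11.1 mM were above both at 3.9 mM, and the reverse held for Impdh2. With plain CPM this order of Impdh1 did not hold, at 39.7 with vehicle at 3.9 mM and 38.8 with imeglimin at 11.1 mM. The glucose log2 ratios were 0.42 (0.34 to 0.50) under vehicle and 1.23 (1.12 to 1.33) under imeglimin for Impdh1, and -1.31 (-1.40 to -1.23) and -0.89 (-0.96 to -0.81) for Impdh2. With plain CPM the Impdh1 ratio under vehicle was 0.03. The other 3 ratios kept their sign under each of the 3 scalings, the smallest in size being -0.74. In cluster 7 under vehicle both were lower at 11.1 mM, Impdh1 at 35.0 against 41.5 plain CPM and Impdh2 at 38.9 against 55.6. The intervals of Impdh1 overlapped there. In cluster 9 under vehicle Impdh1 had 8.2 at 3.9 mM and 8.7 at 11.1 mM, and Impdh2 had 14.8 and 15.7. Under imeglimin the opposite directions were seen in clusters 9 and 17, with the intervals of both genes apart in cluster 17. In cluster 9 the intervals overlapped for both genes. There Impdh1 had 12.0 (13 UMIs) at 11.1 mM against 7.6 at 3.9 mM, and Impdh2 14.8 (16 UMIs) against 25.9.
Imeglimin went with more Impdh2 and, at 3.9 mM, with less Impdh1. Impdh2 was higher by a log2 ratio of 0.74 (0.65 to 0.83) at 11.1 mM and 0.31 (0.25 to 0.38) at 3.9 mM, the latter 0.01 with plain CPM. Impdh1 was lower by -0.83 (-0.93 to -0.72) at 3.9 mM and differed by -0.02 (-0.09 to 0.06) at 11.1 mM. Within the beta-like clusters that hold cells of both libraries at 11.1 mM, plain CPM of Impdh2 with imeglimin and vehicle was 30.8 and 21.7 in cluster 1, 19.7 and 16.4 in cluster 3, 34.5 and 21.5 in cluster 5, 45.0 and 38.9 in cluster 7, and 14.8 and 15.7 in cluster 9. The intervals were apart in cluster 5 only. At 3.9 mM, Impdh1 with imeglimin and vehicle was 27.6 and 40.6 in cluster 0, 21.02 and 30.3 in cluster 2, and 7.6 and 8.2 in cluster 9. Impdh2 in the same libraries was 110.3 and 69.1 in cluster 0, 79.8 and 68.2 in cluster 2, and 25.9 and 14.8 in cluster 9. Its intervals were apart in cluster 0 only.

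Because the share of Impdh1 among the UMIs of both IMP dehydrogenases does not depend on the scaling, it was compared across classes. In beta-like cells it was 36.8% (35.6 to 37.9) with vehicle and 20.9% (19.7 to 22.1) with imeglimin at 3.9 mM, and 65.9% (64.5 to 67.3) and 53.3% (52.0 to 54.6) at 11.1 mM. The imeglimin library was below the vehicle library at both glucose levels, and the same order held in all 7 classes. The intervals of the 2 treatments did not overlap at 3.9 mM in beta-, alpha-, delta-, pp- and endothelial-like cells, and at 11.1 mM in beta- and alpha-like cells. Among beta-like clusters, the share was lower with imeglimin in clusters 0, 2 and 9 at 3.9 mM and in 1, 3, 5 and 7 at 11.1 mM. In cluster 7 at 11.1 mM the gap was small (550 Impdh1 and 659 Impdh2 UMIs, against 276 and 307 with vehicle). Cluster 9 was higher with imeglimin at 11.1 mM (13 and 16, against 5 and 9). Between vehicle libraries the share differed little in cluster 7 (65 and 87 at 3.9 mM) and not in cluster 9 (5 and 9). Under imeglimin it was higher at 11.1 mM in clusters 9 and 17. In alpha-like cells the shares were 42.8% and 22.6% at 3.9 mM and 45.3% and 31.2% at 11.1 mM, so that the 2 vehicle libraries differed little there. Stromal-like cells had the lowest shares in each library, from 10.6% to 25.0%.

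**Figure D2:**
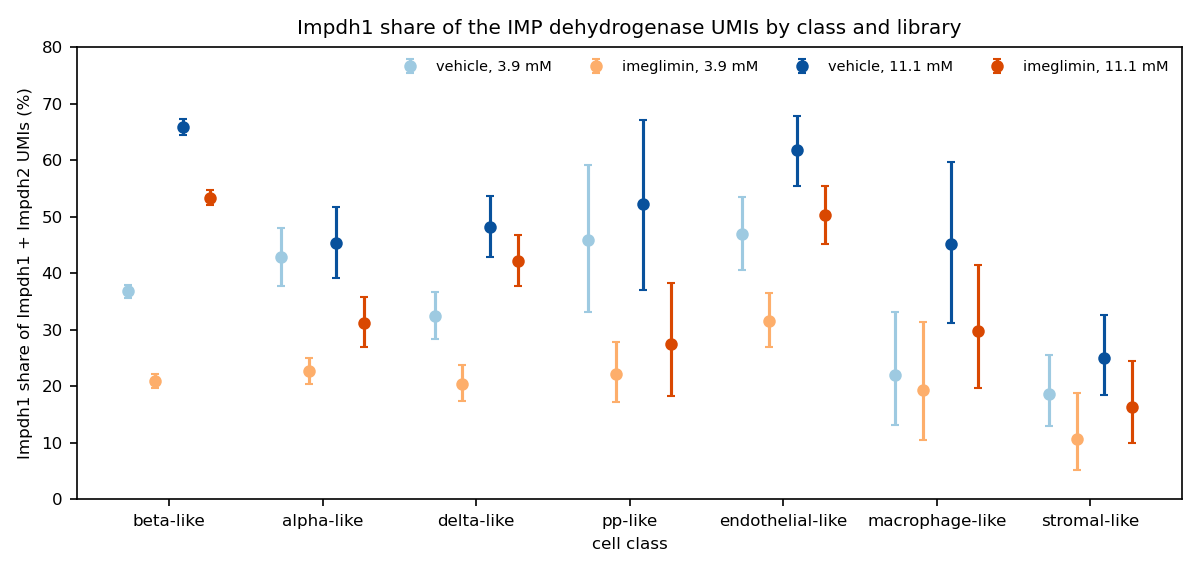
Share of Impdh1 among Impdh1 and Impdh2 UMIs (vertical axis, percent) in 7 cell classes (horizontal axis) and 4 libraries (colours), with 95% exact Clopper-Pearson intervals. In each class the imeglimin library lies below the vehicle library at the same glucose, and in beta-like cells the values run from 20.9% to 65.9%.

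Impdh2 itself was higher with imeglimin in most classes. In alpha-like cells it stood at 32.0 CPM with vehicle and 76.4 with imeglimin at 3.9 mM, and at 29.0 and 49.995 CPM at 11.1 mM, log2 ratios of 1.25 (1.04 to 1.48) and 0.78 (0.49 to 1.08). In delta-like cells the ratios were 0.71 (0.51 to 0.91) at 3.9 mM and 0.68 (0.40 to 0.96) at 11.1 mM. In pp-like cells, which make pancreatic polypeptide, they were 1.45 (0.92 to 2.03) and 0.94 (0.21 to 1.71). Endothelial-like cells gave 0.51 (0.20 to 0.82) and 0.84 (0.48 to 1.21), and macrophage-like cells 0.28 (-0.30 to 0.85) and 1.06 (0.37 to 1.78). Stromal-like cells, where Impdh2 was highest at 122 to 165 CPM, gave -0.44 (-0.85 to -0.03) and 0.11 (-0.30 to 0.52). Under each of 3 scalings the ratio was above 0 in 7 of 7 classes at 11.1 mM and in 6 of 7 at 3.9 mM. With finer clusters, where 458 cells of the imeglimin library at 3.9 mM fell into a cluster with both beta and alpha markers, the alpha-like ratio at 3.9 mM was 1.11, and over all alternatives it lay between 0.93 and 1.26.

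**Figure D3:**
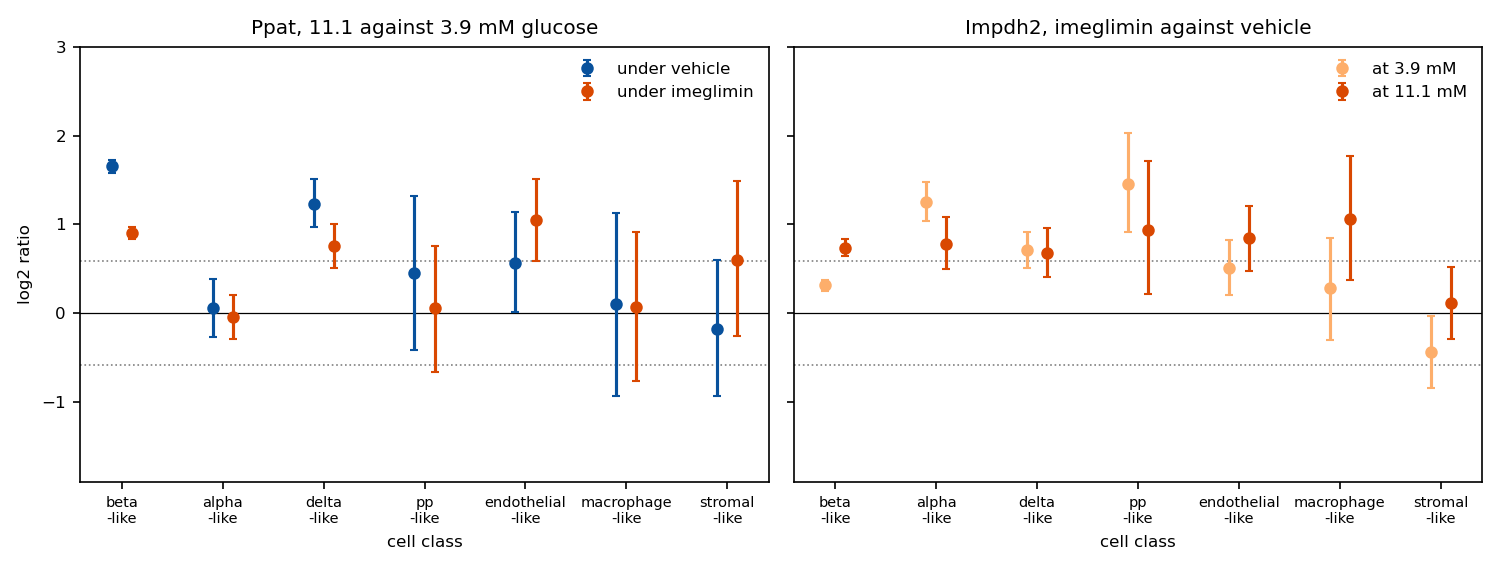
Log2 ratios (vertical axes) of Ppat between glucose levels (left) and of Impdh2 between treatments (right) in 7 cell classes (horizontal axes), with 95% conditional counting intervals; dotted lines mark 1.5-fold. Ppat ratios are above 0 in beta-, delta- and endothelial-like cells, and in the other 4 classes their intervals include 0, and Impdh2 ratios lie above 0 in 6 of 7 classes at 3.9 mM and 7 of 7 at 11.1 mM.

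Gmps, which makes GMP, stood at 81.6, 98.4, 71.8 and 61.0 CPM in beta-like cells. It was 1.61-fold lower at 11.1 mM under imeglimin (log2 ratio -0.69, -0.75 to -0.63) and 1.14-fold lower under vehicle (-0.19, -0.24 to -0.13), the latter 0.00 when hormone and mitochondrial genes were left out of the total. Imeglimin was below vehicle at 11.1 mM by -0.24 and above it at 3.9 mM by 0.27, the latter -0.03 with plain CPM. In alpha-like cells Gmps had 93.5, 93.4, 93.2 and 73.9 CPM, so that imeglimin at 11.1 mM stood below the other 3.

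Counted over the set, 7 of the 10 genes reached 20 CPM in beta-like cells in either library of each comparison, the level at which all genes were compared. Gart, Pfas and Adsl did not and are left out of the beta-like counts that follow. Under vehicle 1 of 7 genes, Ppat, was at least 1.5-fold higher at 11.1 than at 3.9 mM, against 9.8% of the 5910 genes compared, and 3 were lower, Atic, Adss and Impdh2, against 20.2%. Under imeglimin 2 were higher, Ppat and Impdh1, against 15.1% of 6045 genes, and 4 were lower, Atic, Adss, Impdh2 and Gmps, against 23.7%. Pfas, under 20 CPM, was also past 1.5-fold in both glucose comparisons. Imeglimin at 11.1 mM went with 1 higher gene, Impdh2, against 5.61% of 5636 genes, and 0 lower, against 4.45%. At 3.9 mM it went with 1 higher, Ppat, against 12.2% of 6005 genes, and 1 lower, Impdh1, against 10.4%.
In alpha-like cells, where 8 genes reached 20 CPM, imeglimin went with 1 higher gene, Impdh2, against 5.85% of genes compared, and 0 lower, against 5.35%, at 11.1 mM. At 3.9 mM it again went with 1 higher, Impdh2, against 17.6%, and 0 lower, against 9.67%. Between glucose levels 0 were higher, against 0.809%, and 0 lower, against 0.492%, under vehicle. Under imeglimin 0 were higher, against 3.66%, and 2 lower, Paics and Impdh2, against 9.32%. Adsl, under 20 CPM in alpha-like cells, was also past 1.5-fold lower with imeglimin at 11.1 mM. Its log2 ratio was -0.91 against vehicle and -0.78 against imeglimin at 3.9 mM. In delta-like cells, where 7 or 8 genes reached 20 CPM, imeglimin went with 1 higher gene, Impdh2, against 4.15% at 11.1 mM and 5.41% at 3.9 mM, and 0 lower, against 3.53% and 6.48%. Under vehicle Ppat was the 1 gene higher at 11.1 mM, against 5.08%, and Impdh2 the 1 lower, against 7.29%. Under imeglimin 2 were higher, Ppat and Impdh1, against 8.31%, and 3 lower, Atic, Adss and Impdh2, against 8.92%.
Other scalings move the beta-like counts and the shares of all genes together. With plain CPM, 4 of the 7 genes were lower at 11.1 mM under vehicle, against 47.2% of all genes, and 1 was higher, against 4.06%. For imeglimin at 3.9 mM 0 were then higher, against 3.65%, and 1 lower, against 22.3%. Without hormone and mitochondrial genes in the total, 0 of the 7 were higher with imeglimin at 11.1 mM, against 2.24%, where Impdh2 was at 0.55. Glucose under vehicle then gave 2 higher, against 15.4%, and 3 lower, against 12.3%, and under imeglimin 2 higher, against 20.2%, and 3 lower, against 17.3%. Each of these shares rests on few genes, and the comparisons share libraries. The median log2 ratio of all 10 genes, those under 20 CPM included, was -0.27 under vehicle and -0.22 under imeglimin between glucose levels, beside -0.16 and -0.14 over all genes compared. Between treatments it was 0.01 at 11.1 mM and 0.08 at 3.9 mM, beside 0.11 and 0.10. Each glucose comparison held genes of both directions, which the median does not show.

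**Figure D4:**
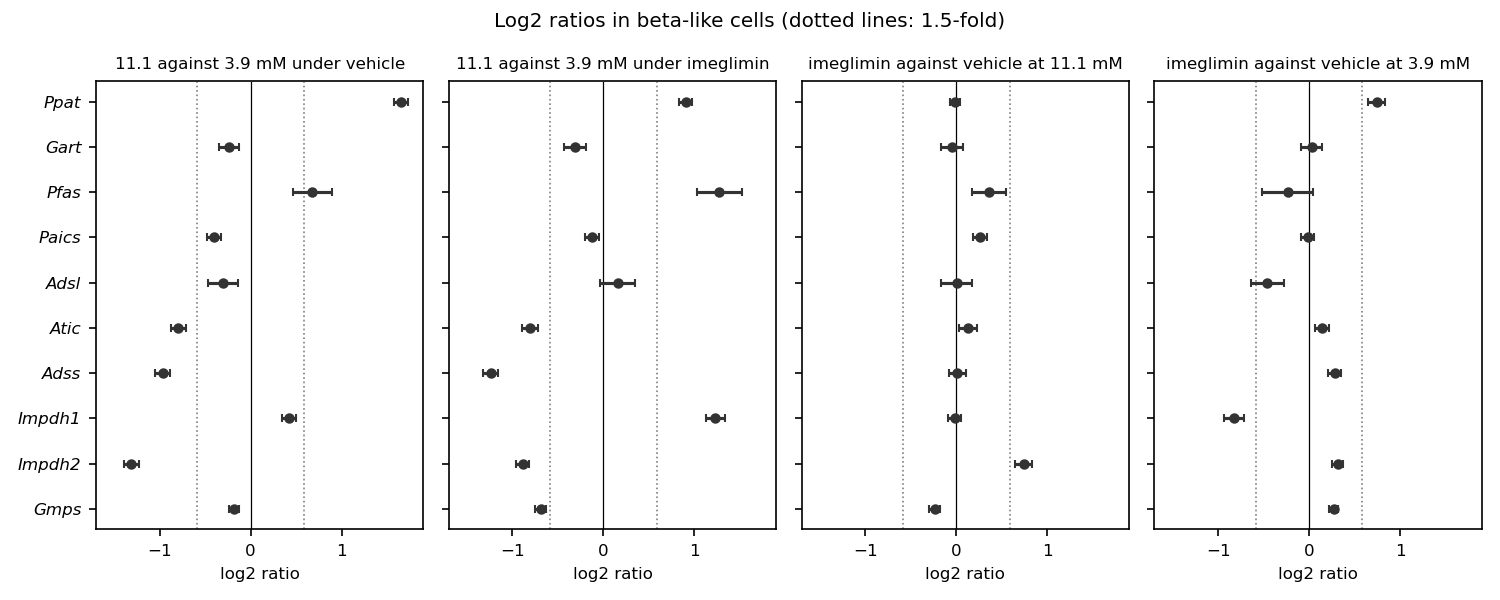
Log2 ratios (horizontal axes) of the 10 genes in beta-like cells in the 4 comparisons, ordered from the first step to GMP, with 95% conditional counting intervals and dotted lines at 1.5-fold. Glucose ratios run from -1.31 for Impdh2 to 1.66 for Ppat under vehicle, and Impdh2 alone lies beyond 1.5-fold with imeglimin at 11.1 mM.

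Genes around the pathway were read in beta-like cells from lists chosen with earlier results of these data known. Of the PRPP synthesis genes that reached 20 CPM, Prps1, which makes PRPP, was 1 of 2 and lower with imeglimin at 11.1 mM, at 42.6 against 68.9 CPM, and 0 of 3 differed by 1.5-fold at 3.9 mM. None of 5 measured purine salvage genes, such as Hprt, differed by 1.5-fold between treatments at either glucose level. Of 6 measured genes of breakdown and interconversion, Nt5c3, a nucleotidase, and Gmpr, which returns GMP to IMP, were lower with imeglimin at 11.1 mM (log2 ratios -0.71 and -0.78). Gmpr (-0.84) and Ampd2 (-0.87), an AMP deaminase, were lower at 3.9 mM. Gmpr thus stood at 91.9 and 51.3 CPM with vehicle and imeglimin at 3.9 mM, and at 93.1 and 54.1 CPM at 11.1 mM. Among nucleotide kinases, Ak3 was lower with imeglimin at 3.9 mM (-0.996), 1 of 6, and 0 of 8 differed at 11.1 mM. Slc29a1, a nucleoside transporter, was lower with imeglimin at both levels (-0.96 at 11.1 mM and -0.65 at 3.9 mM), and Adora2b, an adenosine receptor, was lower at 3.9 mM (-0.65).

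One-carbon and serine genes supply the carbon of the ring. At 11.1 mM, Psat1 (0.77) and Aldh1l2 (0.59) were higher with imeglimin and Glul, glutamine synthetase, was lower (-0.65), 2 and 1 of 10 measured. At 3.9 mM, Phgdh (0.67), the first enzyme of serine synthesis, and Mthfd2 (0.71), a mitochondrial folate enzyme, were higher and Aldh1l2 (-1.14) was lower, 2 and 1 of 9. Of 5 measured pyrimidine genes, 0 differed by 1.5-fold between treatments. Between glucose levels, named after their values were seen, Cad, the first pyrimidine enzyme, was higher at 11.1 mM (1.41 under vehicle and 1.45 under imeglimin) and Umps, the last, was lower (-1.02 and -1.18). Among regulators, Ddit3 (1.61) and Atf4 (0.81), transcription factors of the stress response, were higher with imeglimin at 11.1 mM, 2 of 5 measured. At 3.9 mM Ddit3 was higher (0.68) and Nrf1 lower (-0.65), 1 each of 6. Myc, known to activate purine genes, was under 20 CPM and is named after its values were seen: it stood at 14.0, 19.3, 2.45 and 5.12 CPM. Of the 15 dividing-cell genes only Pcna reached 20 CPM, and it was higher with imeglimin at 3.9 mM (0.74). Plain CPM shifts each of the ratios at 3.9 mM by -0.30, which brings those of Phgdh, Mthfd2, Ddit3 and Pcna under 1.5-fold. Leaving out hormone and mitochondrial genes shifts those at 11.1 mM by -0.19, which brings Aldh1l2 and Psat1 under it.

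A cluster of 104 beta-like cells led by genes of dividing cells such as Top2a and Mki67 was compared with the other beta-like cells, with plain CPM. Impdh2 stood at 72.2 CPM there against 45.2 elsewhere, a log2 ratio of 0.68 (0.44 to 0.90), and was above in 4 of 4 libraries. Impdh1 stood at 27.4 against 35.4 CPM (-0.37, -0.76 to -0.01) and was above in 0 of 4. Adsl, with 13 UMIs there, gave -0.51 (-1.42 to 0.27), which this depth does not resolve. The intervals of the remaining 7 genes included 0.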

How the data were processed

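The authors deposited raw UMI counts per gene and cell barcode for 4 libraries, made with Cell Ranger 6.0.2 on mm10, per the submitters' processing notes; whether introns or strand entered the counting is not given in the sources used here. From these counts, the minimum for a kept barcode was 1000 UMIs and 500 genes, with mitochondrial transcripts limited to 20%. Scrublet called 0 doublets in each library and so did not work; leaving out the highest scores was an alternative. Cells were clustered with scanpy 1.11.5 (2000 variable genes, 30 components, 15 neighbours, Leiden resolution 1), and clusters were named "X-like" from marker lists. UMIs were summed per class and library and scaled by TMM (edgeR 4.0.16, R 4.3.3, used for scaling only). Ratios carry 95% exact conditional (Clopper-Pearson) intervals and levels exact Poisson intervals (scipy 1.17.1), both covering counting error only. The ratio script was tested on simulated data. Genes and members at least 1.5-fold apart were counted among those reaching 20 CPM in either library.

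The members and lists were chosen with earlier results of these data known. All 10 members are named; of each list, up to 3 highest and 3 lowest genes past 1.5-fold at 20 CPM in the imeglimin comparisons; and the 5 genes most like Adsl by log2(CPM + 10). Of the gene identifiers, 99.8% were found in GENCODE M21. There were 11 alternatives planned and 2 added after seeing the data.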

Additional observations from a re-analysis of the deposited data

Results flagged for a closer look

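In 3 cases the imeglimin log2 ratio had opposite signs at the 2 glucose levels with both counting intervals leaving out 0; further pairs had opposite signs with an interval that included 0. With 1 library per condition the differences were not tested. For Gmps in beta-like cells the imeglimin log2 ratio was -0.24 at 11.1 mM and 0.27 at 3.9 mM, a difference of -0.51; with plain CPM the ratio at 3.9 mM was -0.03. For Gmps in delta-like cells the ratios were -0.26 and 0.19, a difference of -0.45. For Adss in alpha-like cells they were -0.28 and 0.23, a difference of -0.52; with plain CPM the ratio at 3.9 mM was -0.02.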

How the results depend on the processing

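No paired analysis was possible because each condition has 1 library. Across the 11 planned and 2 added alternatives no result of the beta-like cells reversed by the rule used, which counts a sign change only for ratios past 1.5-fold; 440 of the recomputed log2 ratios and medians stayed within their counting interval and 132 moved beyond it. Below that size, some signs changed with the scaling: Adsl, Atic and Adss for imeglimin at 11.1 mM, Gart, Atic, Adss and Gmps at 3.9 mM, Gmps for glucose under vehicle and Paics under imeglimin. Plain CPM shifts all log2 ratios of beta-like cells by -0.04 and -0.30 for imeglimin at 11.1 and 3.9 mM, and by -0.39 and -0.14 for glucose under vehicle and imeglimin; leaving hormone and mitochondrial genes out of the total shifts them by -0.19, -0.15, 0.19 and 0.15.

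With plain CPM the median of the 10 genes was -0.36 for glucose under imeglimin, -0.665 for glucose under vehicle and -0.22 for imeglimin at 3.9 mM, and Adsl was -0.70 for glucose under vehicle and -0.76 for imeglimin at 3.9 mM. Without hormone and mitochondrial genes the medians were -0.0721, -0.0854 and -0.0677 in that order and -0.18 for imeglimin at 11.1 mM, and Adsl was -0.12 for glucose under vehicle and -0.18 for imeglimin at 11.1 mM. With the mean of per-cell CPM, the median log2 ratio over all genes at 20 CPM was subtracted from each ratio of a comparison. The medians of the 10 genes were then -0.0829 for glucose under imeglimin, -0.0860 under vehicle and -0.11 for imeglimin at 11.1 mM. Adsl was 0.35 and -0.0905 for glucose under imeglimin and vehicle. Over all kept cells Adsl was -0.0454 for glucose under imeglimin and -0.19 for imeglimin at 11.1 mM. Subtracting the median shifts all per-cell ratios of a comparison alike, and other causes of the last 2 groups of values were not tested.

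Numbers of genes at least 1.5-fold higher and lower in beta-like cells were 316 and 251 for imeglimin at 11.1 mM, 731 and 627 at 3.9 mM, 579 and 1191 for glucose under vehicle, and 915 and 1433 under imeglimin. Without the filter they were 3324 and 4241, 4165 and 4636, 4917 and 4550, and 5444 and 5226, with more genes compared. With plain CPM they were 219 and 1341 for imeglimin at 3.9 mM and 240 and 2789 for glucose under vehicle. Without hormone and mitochondrial genes they were 126 and 453 for imeglimin at 11.1 mM, 394 and 908 at 3.9 mM, and 909 and 727 for glucose under vehicle. Adsl and Pfas have the fewest UMIs, and outside beta-like cells their ratios are limited by depth.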
